A study of Homo sapiens with 6 samples.

Results

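The 10 genes described here encode parts of the circadian clock: PER1, PER2, PER3, CRY1, CRY2, NR1D1, NR1D2, DBP, TEF and CLOCK. They were chosen by gene name, with earlier results of these data known. Each had 1 row among the 58735 genes of the deposited tables. RNA-seq libraries came from the human line MDA-MB-231, which derives from a triple-negative breast cancer, is labelled wild type and was grown in DMEM with serum. All cells had carried the membrane dye PKH26 for 12 days. Slow-cycling cells (SCC, labelled PKH26hi) were the brightest 1% at sorting, and rapid-cycling cells (RCC, labelled PKH26lo, and of moderate brightness in the protocol text) were the control. Each group had 3 libraries, named as biological replicates in the series text, of 1 cell line. Summed counts ran from 17655855 to 27831824 per library. The labels state neither a time of day for collection nor a step that synchronised the cells.

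The clock is a loop of transcription that runs in most cells of the body with a period of about a day. CLOCK pairs with ARNTL (also called BMAL1), binds E-box sequences and switches on the PER, CRY, NR1D and DBP genes. PER and CRY proteins return to the nucleus and block CLOCK and ARNTL. NR1D1 and NR1D2 (REV-ERB alpha and beta) repress ARNTL through ROR elements, and DBP and TEF activate genes through D-box sequences. PER1 is also known as a gene that serum, cAMP and glucocorticoid signals induce within an hour or so, which is a route by which outside cues reset the clock.

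NR1D1 and PER1 rose in slow-cycling cells, by 3.82-fold and 2.47-fold in the fitted model, and 0 of the 10 genes fell. The other 8 genes did not pass the test of edgeR's quasi-likelihood fit, which called a gene at a Benjamini-Hochberg adjusted p under 0.05 over all 15881 tested genes. Over all tested genes this test called 1.69% higher and 0.378% lower in SCC. At an unadjusted p under 0.05, 4 of the 10 genes were higher (NR1D1, PER1, CRY2 and DBP) and 0 lower, against 11.4% and 8.27% of all tested genes. DESeq2 also called 0 of the 10 lower, as did limma without a filter, and limma with its FPKM filter called 0 lower of the 8 it tested (PER3 and DBP were left out). All 3 SCC libraries lay above all 3 RCC libraries for 7 of the 10 genes, against 14.4% of all tested genes, and all lay below for 0 of the 10, against 13.4%. The median log2 fold change was 0.31 over the 10 genes and 0.00 over all tested genes. As the 10 genes were chosen with earlier results of these data known, these contrasts are descriptions and not tests of the set. All 10 genes passed the filter on low counts. In these bulk libraries a change in every cell and a change in a fraction of the cells cannot be told apart.

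**Figure D1:**
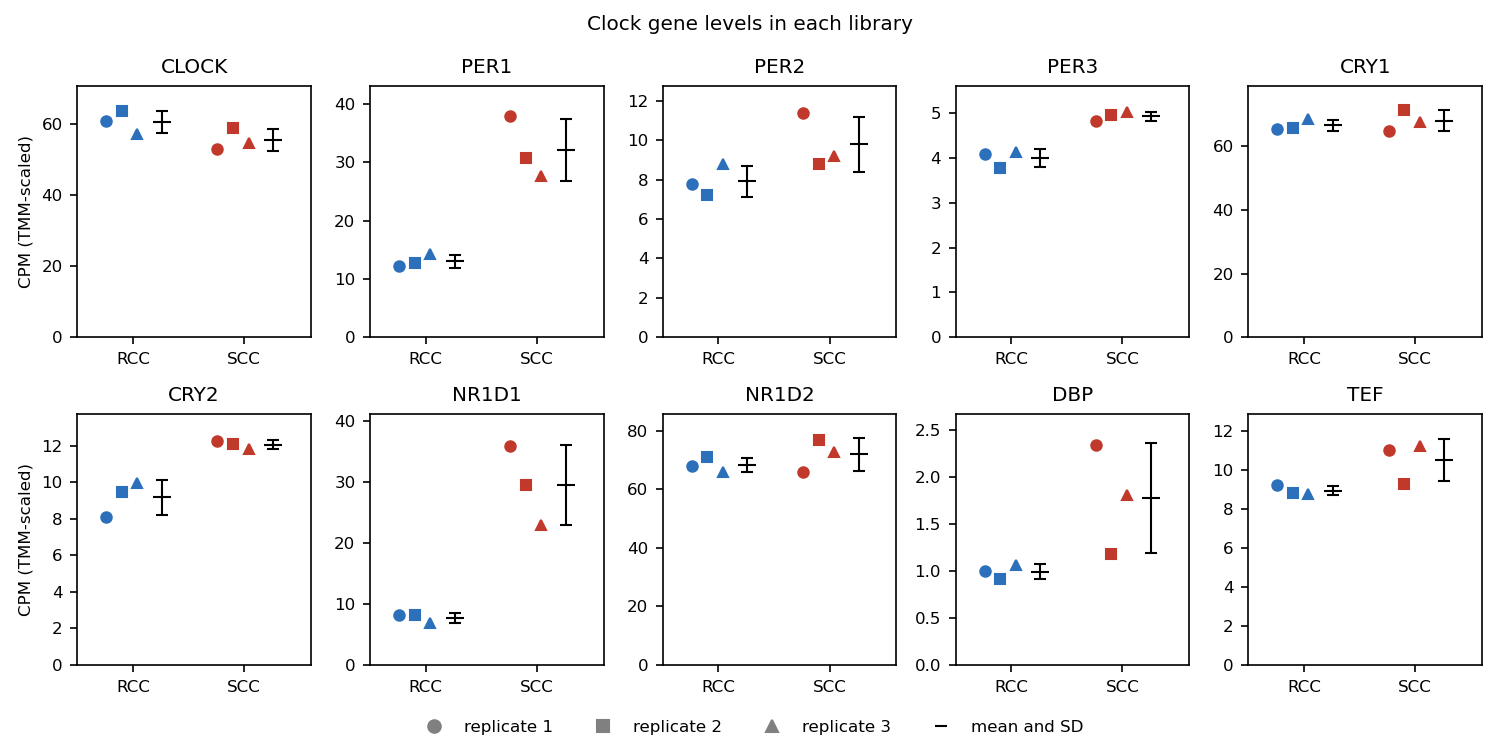
Level of each clock gene in CPM (counts divided by TMM-scaled library size, linear axis from 0) in the 3 RCC libraries (blue) and 3 SCC libraries (red), with marker shapes for replicates and a black bar for the mean and SD. PER1 and NR1D1 show the widest gap between groups, from 14.3 to 27.6 CPM and from 8.22 to 23.0 CPM, and CRY1, NR1D2 and CLOCK overlap.

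Libraries were checked for features that could bear on these genes. SCC replicate 1 stood apart by GC content: its median log2 deviation from the mean of the 6 libraries ran from -0.24 in the tenth of genes with the lowest GC content to 0.40 in the highest, whereas the other 5 libraries lay between -0.16 and 0.10. Of the 10 clock genes, CLOCK, CRY1 and NR1D2 had a GC content of 37.2% to 38.5% and the other 7 of 46.2% to 62.7%, and those 7 were the genes whose groups did not overlap. The fold change of each clock gene is therefore given with and without SCC replicate 1. Of the markers of the labelled line, VIM and CD44 summed to between 1100 and 1190 CPM in every library, PGR had 0 counts in 5 of 6 libraries, and ESR1 and CDH1 were below 0.04 FPKM on average in both groups. The other 3 of the 6 genes listed as low in this line were detected: ERBB2 averaged 8.25 FPKM in SCC against 7.23 in RCC, GATA3 2.58 against 2.23 and EPCAM 1.71 against 1.98. None of the 3 was called. Mitochondrial genes took 4.45% to 4.75% of counts in SCC and 3.77% to 3.96% in RCC. Of 4 leukocyte markers 1 was tested (PTPRC, not called). The 4 summed to 0.613 to 2.52 CPM in SCC and 0.526 to 0.951 in RCC, the highest being SCC replicate 1, and CD3E was at 0 counts in 5 of 6 libraries. The part of leukocyte or mitochondrial RNA in the results below was not tested.

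The NR1D genes encode nuclear receptors that bind heme and repress transcription. NR1D1 (ENSG00000126368, GRCh38 chromosome 17, 40092787 to 40100725, minus strand) was at 36.05, 29.55 and 23.0 CPM in SCC replicates 1 to 3. In RCC replicates 1 to 3 it was at 8.13, 8.22 and 6.82 CPM. The lowest SCC library was thus well above the highest RCC library, and the SCC libraries spread more than the RCC libraries. Means were 29.5 ± 6.53 CPM for SCC against 7.72 ± 0.78 for RCC (SD, n = 3). The log2 fold change was 1.93 (standard error 0.16, 95% interval 1.57 to 2.29, edgeR adjusted p 0.000105), the 20th smallest p of all tested genes. Without SCC replicate 1 it was 1.76 (adjusted p 5.01e-11). NR1D1 shares 9.49% of its exon bases with THRA, a thyroid hormone receptor gene on the opposite strand, and the strand setting of the counting is not given in the sources used here. THRA itself was not called, at 27.15, 19.2 and 19.5 CPM in SCC and 20.2, 20.1 and 20.5 CPM in RCC.

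NR1D2 (ENSG00000174738, chromosome 3, 23945260 to 23980618), the other REV-ERB gene, was at 66.0, 76.9 and 72.9 CPM in SCC and 68.1, 70.9 and 66.1 CPM in RCC. Its groups overlapped through SCC replicate 1 alone: without that library both SCC values lay above all RCC values. The log2 fold change was 0.07 (95% interval -0.10 to 0.25, edgeR adjusted p 0.621). With an offset for GC content it was 0.19 and NR1D2 was called higher (adjusted p 0.0488). That fit called 4.84% of all tested genes, against 2.07% without the offset. With the offset and without SCC replicate 1, a setting chosen after seeing the data, it was 0.18 (adjusted p 0.0396). With the offset and a replicate block it was 0.19 and NR1D2 was not called (adjusted p 0.051). Without SCC replicate 1 and with no offset it was 0.13 (adjusted p 0.214).

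PER1 (ENSG00000179094, chromosome 17, 8140472 to 8156506, minus strand), a period gene and the one best known for fast induction, was at 37.9, 30.8 and 27.6 CPM in SCC. In RCC it was at 12.2, 12.7 and 14.3 CPM. No library of one group came near the other group. Means were 32.1 ± 5.28 CPM and 13.0 ± 1.09 CPM (SD, n = 3), with a log2 fold change of 1.30 (standard error 0.13, 95% interval 1.02 to 1.59, edgeR adjusted p 0.000346). Leaving out SCC replicate 1 gave 1.17 (adjusted p 4.31e-09), and the offset for GC content gave 1.08 (adjusted p 2.01e-06). In limma on log2(FPKM + 1) with no filter on low values, PER1 was not called (log2 fold change 0.95, adjusted p 0.0728).

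The other period genes were at lower levels and did not pass the test. PER2 (ENSG00000132326, chromosome 2, 238244038 to 238290102) was at 11.4, 8.79 and 9.20 CPM in SCC and 7.78, 7.22 and 8.78 CPM in RCC. The groups were separated by less than the counting error of either neighbouring library, SCC replicate 2 with 172 counts and RCC replicate 3 with 157. The log2 fold change was 0.31 (95% interval -0.00 to 0.63, edgeR adjusted p 0.258), and 0.19 without SCC replicate 1. PER3 (ENSG00000049246, chromosome 1, 7784320 to 7845177) was at 4.82, 4.96 and 5.03 CPM in SCC and 4.09, 3.78 and 4.14 CPM in RCC. These values were tight within each group, yet rested on 74 to 130 counts per library, and the log2 fold change of 0.30 was not called (95% interval -0.03 to 0.64, edgeR adjusted p 0.292). Without SCC replicate 1 it was 0.32. PER3 shares 10.7% of its exon bases with UTS2 on the opposite strand, which had at most 2 counts in a library.

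The cryptochromes are the partners of the PER proteins and the direct blockers of CLOCK and ARNTL. CRY1 (ENSG00000008405, chromosome 12, 106991364 to 107093829) was the clock gene with the highest level per length. It stood at 64.9, 71.5 and 67.7 CPM in SCC and 65.3, 65.85 and 68.5 CPM in RCC. The groups overlapped, with a log2 fold change of 0.03 whose 95% interval ran from -0.13 to 0.19 (edgeR adjusted p 0.831). Without SCC replicate 1 it was 0.06, and with the GC offset 0.17 (edgeR unadjusted p 0.012, adjusted p 0.115). CRY2 (ENSG00000121671, chromosome 11, 45847118 to 45883248) was at 12.3, 12.1 and 11.8 CPM in SCC and 8.09, 9.46 and 9.96 CPM in RCC. Every SCC library was above every RCC library. The log2 fold change was 0.40 (95% interval 0.13 to 0.66) with an unadjusted p of 0.00698 in edgeR, which did not pass the threshold after adjustment (0.121). Leaving out SCC replicate 1 gave 0.39 (adjusted p 0.0757), and the GC offset gave 0.28 (adjusted p 0.191).

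DBP and TEF belong to the PAR bZIP family and drive D-box genes. DBP (ENSG00000105516, chromosome 19, 48630030 to 48637438) was the least abundant of the 10 genes, with 63, 23 and 38 counts in SCC and 23, 19 and 19 counts in RCC. In CPM these were 2.34, 1.18 and 1.80 against 1.00, 0.91 and 1.06. The groups did not overlap, but SCC replicate 2 was close to RCC. The log2 fold change of 0.85 had a 95% interval of 0.15 to 1.56 (edgeR adjusted p 0.186), and was 0.59 without SCC replicate 1. DBP shares 10.1% of its exon bases with SPHK2 on the opposite strand, a sphingosine kinase gene that averaged 25.5 CPM in SCC against 21.2 in RCC and was not called. TEF (ENSG00000167074, chromosome 22, 41367333 to 41399326) was at 11.0, 9.31 and 11.2 CPM in SCC and 9.22, 8.84 and 8.78 CPM in RCC. Its log2 fold change was 0.24 (95% interval -0.04 to 0.51, edgeR adjusted p 0.304), and 0.20 without SCC replicate 1. With the GC offset it was 0.12 (edgeR adjusted p 0.616).

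CLOCK (ENSG00000134852, chromosome 4, 55427903 to 55547138), the activator in the loop, was the 1 gene of the 10 with a fitted value below 0. It was at 52.9, 58.95 and 54.5 CPM in SCC and 60.9, 63.5 and 57.2 CPM in RCC. SCC replicate 2 lay within the RCC range. The log2 fold change was -0.13 (95% interval -0.30 to 0.04, edgeR adjusted p 0.375). Leaving out SCC replicate 1 gave -0.09. The GC offset gave 0.01, so its direction depended on that setting. Its partner ARNTL, ARNTL2 (a relative of ARNTL) and NPAS2 (a relative of CLOCK) were not called either. These genes were named for their role after their values were seen. ARNTL averaged 7.32 ± 1.18 CPM in SCC against 8.13 ± 0.68 in RCC, and NPAS2 averaged 44.2 ± 4.25 against 40.8 ± 3.11 (SD, n = 3). ARNTL2 averaged 71.8 ± 4.22 CPM in SCC against 81.9 ± 5.31 in RCC, with every SCC library below every RCC library. The log2 fold change of ARNTL2 was -0.19 (edgeR unadjusted p 0.0331, adjusted p 0.218).

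**Figure D2:**
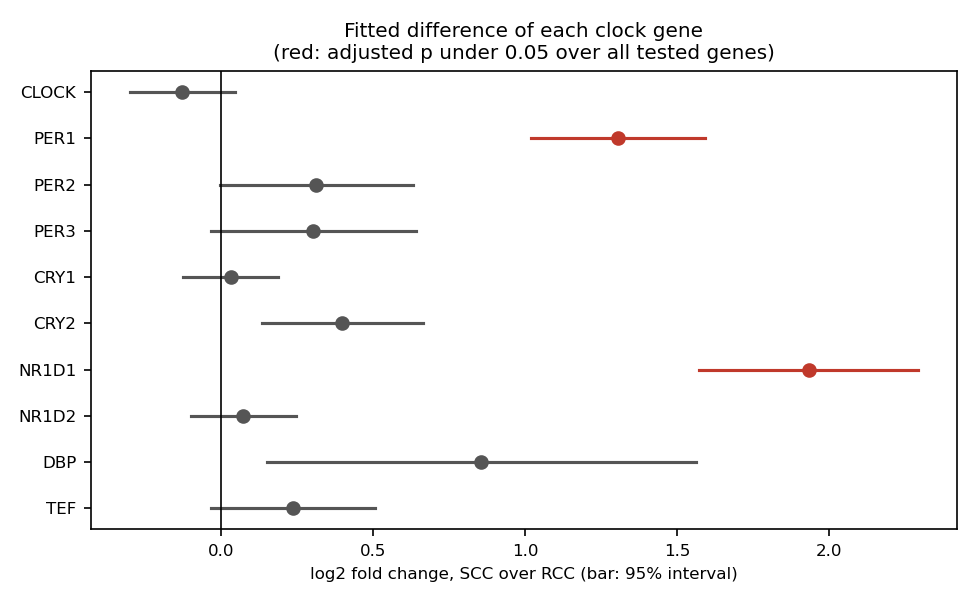
Fitted log2 fold change of SCC over RCC (x axis) for each clock gene (y axis), with 95% intervals. NR1D1 at 1.93 and PER1 at 1.30 (red) passed the threshold, and the grey intervals of PER2, PER3, CRY1, NR1D2, TEF and CLOCK include 0.

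Levels between genes are compared as deposited FPKM, which divides each count by gene length and by 1 constant per library. That constant was 0.9835 to 1.02 times the summed counts of the library. In RCC the order was CRY1 at 13.1 ± 0.34, NR1D2 at 11.7 ± 0.48, CLOCK at 5.13 ± 0.29 and NR1D1 at 2.78 ± 0.29 FPKM (SD, n = 3). These were followed by TEF (1.89), PER1 (1.86), CRY2 (1.48), PER2 (1.15), PER3 (0.49) and DBP (0.15), and the only neighbours that overlapped were TEF and PER1. In SCC, NR1D1 reached 10.6 ± 2.27 FPKM and overlapped NR1D2 at 12.3 ± 1.01, which in turn overlapped CRY1 at 13.3 ± 0.71. PER1 reached 4.54 ± 0.72 FPKM and overlapped CLOCK at 4.68 ± 0.29. The remaining order, TEF, CRY2, PER2, PER3 and DBP, was that of RCC with no overlap between neighbours. Among all tested genes the mean FPKM of NR1D1 lay at the 42.2 percentile in RCC and the 71.4 percentile in SCC, and that of PER1 at 35.0 and 52.2. The gene lengths in the tables count every annotated exon (6544 bases for DBP in a gene of similar span), which lowers FPKM for genes with long minor transcripts.

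Ratios of related genes were taken within each library. NR1D1 was at 1.15, 0.806 and 0.663 times the FPKM of NR1D2 in SCC, and at 0.251, 0.243 and 0.217 times in RCC. PER1 was at 3.27, 3.44 and 2.94 times PER2 in SCC and at 1.54, 1.72 and 1.60 times in RCC. Against PER3 it was at 9.08, 7.18 and 6.34 times in SCC and at 3.445, 3.88 and 3.99 times in RCC. PER2 over PER3 overlapped between the groups, at 2.09 to 2.78 in SCC and 2.24 to 2.50 in RCC. CRY2 over CRY1 was 0.138 to 0.154 in SCC and 0.101 to 0.119 in RCC, and DBP over TEF 0.0911 to 0.153 and 0.074 to 0.0872. Such ratios do not depend on the scaling of a library, although they can carry a GC difference. CRY2 has a GC content of 57% and CRY1 of 37.2%, and with the GC offset their log2 fold changes were 0.28 and 0.17. Of the 6 ratios compared, 5 did not overlap between groups. Each of these 5 gave a two-sided exact permutation p of 0.1, the smallest that 3 against 3 libraries allow (0.12 adjusted over the 6 ratios). The ratios share genes such as PER1 and restate the levels given above, so they are not separate results. The share of non-overlapping ratios among other gene pairs was not computed. The difference in mean log2 ratio was 1.84 for NR1D1 over NR1D2, 0.99 for PER1 over PER2 and 0.00 for PER2 over PER3.

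**Figure D3:**
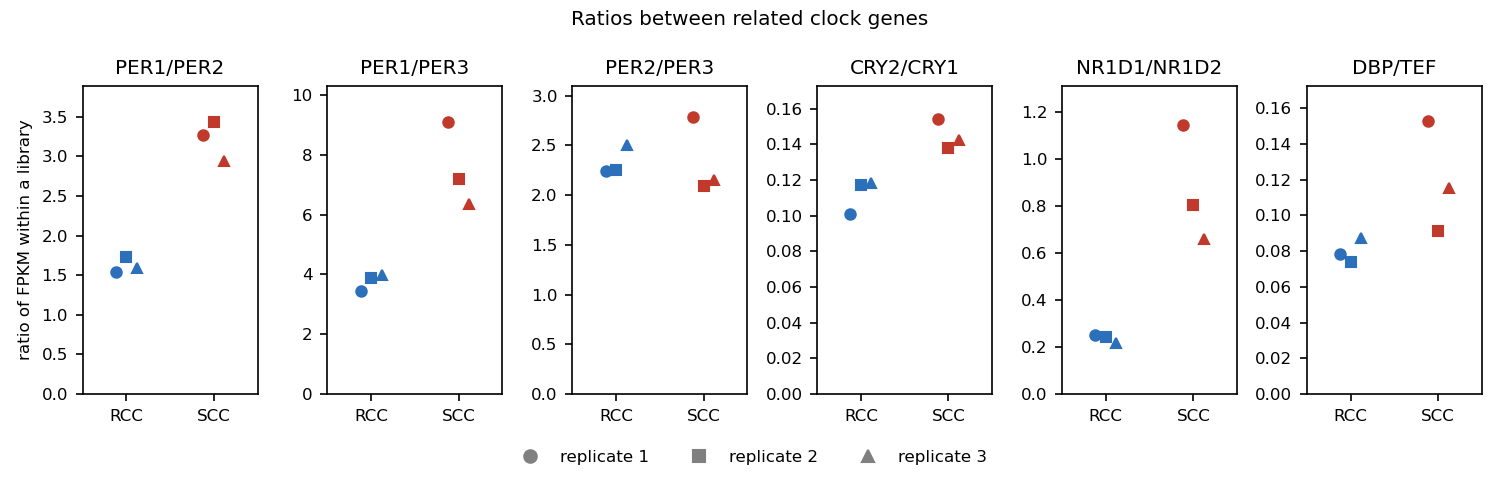
Ratio of FPKM between 2 related clock genes (linear y axis from 0) in each RCC (blue) and SCC (red) library, with marker shapes for replicates. NR1D1 over NR1D2 moves from 0.217 to 0.251 in RCC to 0.663 to 1.15 in SCC, and PER2 over PER3 overlaps between the groups.

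The sequence just before the start site is shown for the 2 genes that rose. Sites farther from the start were not searched. Windows of 250 bases before to 50 after each RefSeq start (GRCh38.p14) were found for all 10 genes, 15 windows in all. Each was searched on both strands for the E-box CACGTG, the D-box TTANNTAA, the ROR element core AGGTCA, the cAMP response element TGACGTCA, its core TGACG (contained in the full element) and the AP-1 site TGANTCA. Only bases outside annotated exons are printed, 5′ to 3′ on the strand of the gene, which for both is the minus strand (start sites at 8152404 and 40100589). The PER1 stretch lies between exons of longer annotated PER1 transcripts. Capitals mark matches, and the PER1 stretch is chr17:8152436-8152654 and the NR1D1 stretch chr17:40100726-40100839.
PER1: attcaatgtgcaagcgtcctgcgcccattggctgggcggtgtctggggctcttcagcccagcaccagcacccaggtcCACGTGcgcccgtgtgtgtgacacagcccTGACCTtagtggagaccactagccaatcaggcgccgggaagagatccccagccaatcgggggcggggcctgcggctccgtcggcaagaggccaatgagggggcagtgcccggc
NR1D1: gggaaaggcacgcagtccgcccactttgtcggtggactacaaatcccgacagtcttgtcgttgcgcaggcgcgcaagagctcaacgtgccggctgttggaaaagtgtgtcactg

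The PER1 window held 1 E-box at position -173 from the start site and 1 ROR element core on the other strand at -144. The NR1D1 window held none of the 6 motifs, which says only that these letters are not in this window. E-boxes were found in 4 of the 15 windows, those of PER1, NR1D2 and both windows of TEF, against 7.26% of 35114 windows of all genes. The downstream window of NR1D2 held 2 E-boxes and a D-box (TTACATAA). D-boxes were found in 4 windows, 1 each of PER2, PER3, NR1D2 and TEF, against 5.63%, and the PER3 window held 2 of them (TTATGTAA and TTATATAA). The core TGACG was in 7 windows (24.6% of all), AGGTCA in 3 (13.8%), and the full cAMP response element (1.85%) and the AP-1 site (7.71%) in 0. NR1D2 and TEF held E-boxes and were not called, and NR1D1 was called and held none here. Whether motif content relates to the calls was not tested. Matches are descriptions of sequence and not evidence of binding.

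The rest of the pathway is given by 4 lists of related genes, as counts with the same test. These lists were also written with earlier results of these data known. Of 15 other loop factors 12 were tested and 1 was called higher, BHLHE40, a repressor that competes for E-boxes. It was at 80.45, 72.8 and 69.6 CPM in SCC and 53.8, 54.1 and 56.3 CPM in RCC, without overlap, a log2 fold change of 0.44 (edgeR adjusted p 0.0147). BHLHE40 was not called without RCC replicate 1, 2 or 3 (adjusted p 0.128, 0.107 and 0.0897) or in limma without a filter (0.127). NFIL3, the repressor of D-box genes, named after its values were seen, averaged 15.1 ± 2.18 CPM in SCC against 10.3 ± 0.95 in RCC (SD, n = 3) and was not called (adjusted p 0.0694). The list's median log2 fold change was 0.10, and 0 of its genes were called lower in edgeR. At an unadjusted p under 0.05, 3 of the 12 were higher and 1 lower (ARNTL2, named after its values were seen). Over all tested genes these shares were 11.4% and 8.27%.

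Genes whose products modify PER and CRY proteins, such as casein kinases and ubiquitin ligases, showed no call in either direction among 15 tested of 16. At an unadjusted p under 0.05 in edgeR, 1 was higher and 3 were lower, against 11.4% and 8.27% of all tested genes. The median log2 fold change was -0.03. All SCC libraries lay above all RCC libraries for 2 of these 15 genes and below for 6, against 14.4% and 13.4% of all tested genes. Their log2 fold changes ran from -0.34 to 0.87.

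Of 10 clock output genes, all tested, KLF9, KLF10 and CDKN1A were called higher and 0 lower in edgeR. At an unadjusted p under 0.05, 4 were higher and 0 lower, against 11.4% and 8.27% of all tested genes. The list's median log2 fold change was 0.12. KLF9, a zinc finger factor also known as a glucocorticoid target, was at 9.76, 7.72 and 8.40 CPM in SCC and 4.87, 3.78 and 4.195 CPM in RCC. Its log2 fold change was 1.01 (edgeR adjusted p 0.00804), and it was not called without RCC replicate 2 or 3 (0.0587 and 0.0532) or in the 3 limma fits (0.0678 to 0.244). KLF10, a TGF-beta inducible zinc finger factor, averaged 125.2 ± 8.22 CPM in SCC against 81.5 ± 2.09 in RCC (SD, n = 3), a log2 fold change of 0.62 (edgeR adjusted p 0.001). CDKN1A, which encodes the kinase inhibitor p21, had a log2 fold change of 0.69.

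Of 14 clock input genes, which carry cAMP, serum, heat and glucocorticoid signals, 13 were tested, 1 was called higher and 0 lower in edgeR. At an unadjusted p under 0.05, 4 were higher and 2 lower, against 11.4% and 8.27% of all tested genes. The list's median log2 fold change was 0.07. TSC22D3, a glucocorticoid-induced leucine zipper gene, was at 13.5, 13.2 and 12.8 CPM in SCC and 8.52, 9.56 and 6.43 CPM in RCC. Its log2 fold change was 0.68 (edgeR adjusted p 0.0386), and it was not called without SCC replicate 3 (0.0913) or without RCC replicate 1, 2 or 3 (0.158, 0.0620 and 0.145), nor in the 3 limma fits (0.109 to 0.321). FKBP5, another glucocorticoid target, named after its values were seen, averaged 55.7 CPM in SCC against 65.3 in RCC. Every SCC library was below every RCC library for FKBP5. It was not called (log2 fold change -0.23, edgeR unadjusted p 0.00812, adjusted p 0.127). The kinase gene SIK1, induced by cAMP, did not pass the filter and was named after its values were seen, with 8, 6 and 68 counts in SCC and 2, 3 and 2 in RCC. Its near-identical copy SIK1B, which is in none of the 4 lists and was also named after its values were seen, took most reads, so neither value is certain. SIK1B was at 23.9, 17.5 and 18.5 CPM in SCC and 7.83, 7.12 and 12.8 CPM in RCC, a log2 fold change of 1.13 (edgeR adjusted p 0.0177), and was not called without RCC replicate 1 (0.126) or 2 (0.0979) or in the 3 limma fits (0.0866 to 0.293).

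**Figure D4:**
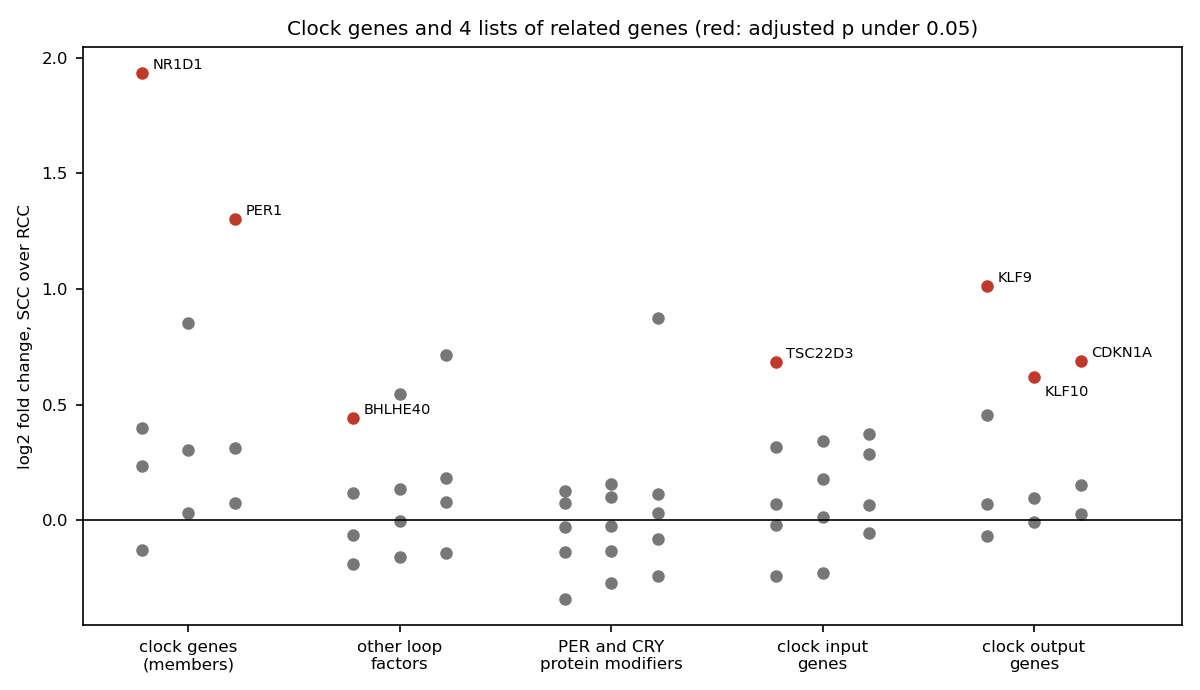
Log2 fold change of SCC over RCC (y axis) for the 10 clock genes and the tested genes of 4 related lists (x axis), with red for an adjusted p under 0.05. NR1D1 at 1.93, PER1 at 1.30 and KLF9 at 1.01 are the highest called genes, and no gene is called lower.

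**Figure D5:**
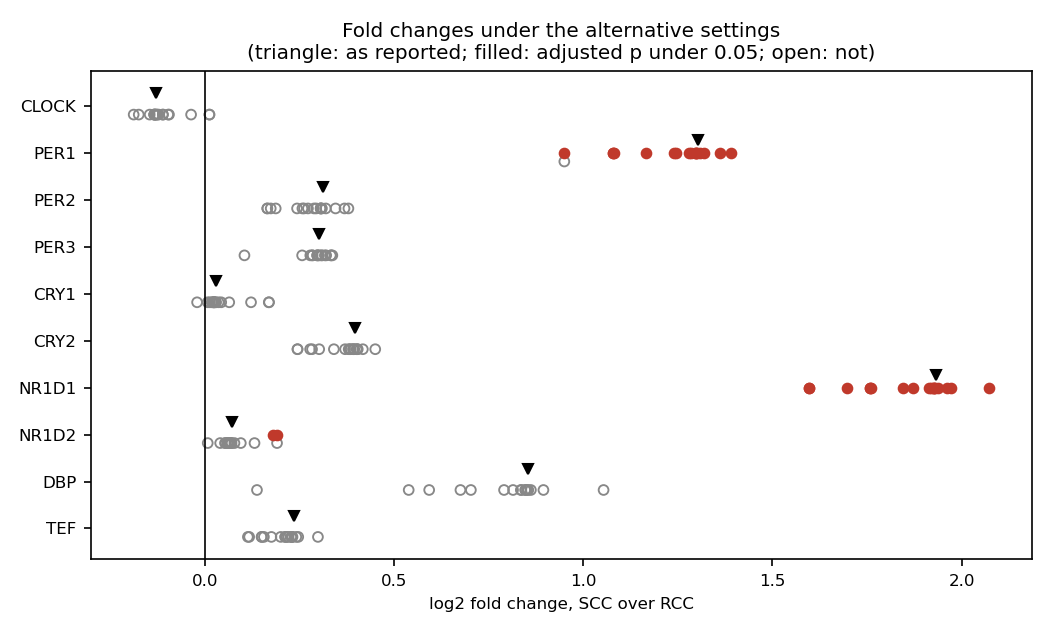
Log2 fold change of SCC over RCC (x axis) for each clock gene (y axis) under 18 alternative settings (16 for PER3 and DBP, which the FPKM filter of limma left out), with filled points for an adjusted p under 0.05, open points below them for those past it, and a triangle for the reported value. NR1D1 was called in 18 of 18 settings (1.60 to 2.07), PER1 in 17 of 18 (0.95 to 1.39) and NR1D2 in 2 of 18.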

How the data were processed

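The authors deposited whole-number counts per gene and FPKM per gene for 6 libraries, each with a column of gene length. HISAT2 2.0.5 and featureCounts 1.5.0-p3 are named in the submitters' processing notes, and the genome build, read filters and strand setting are not given in the sources used here. All 58735 rows matched the gene IDs and positions of GENCODE 29 on GRCh38, so coordinates are on that build. Within a library each deposited FPKM equalled the count per gene length times 1 constant. The 27 names turned into dates were restored by gene ID.

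Counts were filtered with filterByExpr (minimum count 10), scaled by TMM and tested with edgeR 4.0.16 (glmQLFit and glmQLFTest, group alone, two-sided, Benjamini-Hochberg) in R 4.3.3. Standard errors are the fold change over the square root of F. CPM use TMM-scaled totals of the tested genes. Same-group libraries differed beyond sampling noise (chi-square per degree of freedom 3.17 to 24.65), so each is 1 replicate. The p-values set the group difference against the spread between these libraries, which come from 1 cell line. Same-numbered libraries did not deviate together (correlations -0.01, 0.02 and -0.08), so numbers were not taken as pairs. The fits were tested on simulated data.

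Alternatives used DESeq2 1.42.0, limma 3.58.1 on log2(FPKM + 1), filtered (3 libraries reaching an FPKM of 1) or not, and filtered on log2(FPKM + 0.1), other scalings and filters, a GC offset (lowess span 0.3, GC of the longest transcript), a replicate block and each library left out. The GC offset without SCC replicate 1 and the overlap counts without each library were chosen after seeing the data. Genes named were the 10 clock genes, called genes of the 4 lists (or the smallest p where none was called, which is not reported here) and genes overlapping a called clock gene. Others are marked as named after their values were seen. Overlap partners of uncalled genes are named because of their strand, some with their levels or counts. An input gene listed as MKL1 was matched under MRTFA. The clock genes and the lists were chosen with earlier results of these data known.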

Additional observations from a re-analysis of the deposited data

How the results depend on the processing

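Of the 10 clock genes 2 were called higher and 0 lower, and these counts held within 1.5 times in every alternative but limma on log2(FPKM + 1) without a filter, which called 1 higher (NR1D1). The GC offset called 3. Directions changed for CRY1 without SCC replicate 2 (-0.020, where leaving out single libraries gave -0.020 to 0.065) and for CLOCK with the GC offset (0.0126) and with the replicate block and GC offset (0.0126). The cause was not tested. With the replicate block alone 2 clock genes were higher and 0 lower. The number of clock genes whose SCC libraries all lay above RCC was 7 to 8 with a library left out, against 17.7% to 22.8% of all tested genes.

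Over all tested genes, 328 calls (268 higher, 60 lower) became 650 with DESeq2 (480, 170), 1310 with every gene of at least 1 count (995, 315), 166 with limma on log2(FPKM + 1) (130, 36), 151 on log2(FPKM + 0.1) (117, 34) and 49 without a filter (48, 1). They were 768 with the GC offset (523, 245) and 1036 with that offset, no block and without SCC replicate 1 (645, 391). The replicate block with the GC offset gave 1053 (621, 432). The replicate block alone gave 456 calls (350, 106). Leaving out 1 library gave 107 to 985 calls, 99 to 642 higher and 8 to 343 lower. Calls rose without SCC replicate 1 (985) or SCC replicate 2 (846) and fell without any other library (107 to 198). Fewer libraries enter these fits, and the cause of the rise was not tested.

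Depth limits DBP most, at 19 to 63 counts per library. Each group has 3 libraries of 1 cell line, with no collection time in the labels. Strand use limits NR1D1, DBP and PER3, which share exon bases with genes on the opposite strand. UTS2 at PER3 had at most 2 counts in a library. PER2 and CRY1 share smaller parts with such genes (2.73% and 1.86%), and CLOCK shares 0.65% with TMEM165. TMEM165 averaged 119.4 CPM in SCC against 121.9 in RCC and was not called.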
